A study of Homo sapiens with 3 samples.

Results

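The 39 genes described here encode the vacuolar proton pump (V-ATPase) and the proteins of the lysosome that it acidifies, and their mRNAs were followed in RNA immunoprecipitates of the RNA-binding protein MEX3A. They were chosen by name, as rows of both gene tables, and all 39 were found among 57820 listed genes. They comprise 17 pump subunits (7 of the membrane sector V0, 8 of the cytosolic sector V1 and 2 accessory subunits), 12 hydrolases, 6 membrane proteins, 2 luminal proteins that are not enzymes and 2 transcription factors. The material was ACHN, a widely used human line of renal cell carcinoma, made to express MEX3A with a Flag tag stably; every sample carried this overexpression, so no sample without it serves as a control. Cells were cross-linked with 0.3% formaldehyde, and RNA that came down with an anti-Flag antibody was set against RNA from an IgG precipitate, with 1 library of each. The input RNA was not analysed here, so a ratio compares a precipitate with a precipitate and not with the level of the mRNA in the cells.

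The V-ATPase is a rotary motor. Its V1 sector sits in the cytosol and hydrolyses ATP, and the rotation this drives moves protons through the V0 sector, which is built into the membrane. The low pH that results activates the cathepsins and glycosidases of the lysosomal lumen, while heavily glycosylated membrane proteins line the organelle, and the transcription factors TFEB and TFE3 activate many of these genes through a promoter element called CLEAR. MEX3A binds RNA through KH domains, and the series concerns its targets in renal carcinoma cells.

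Because TFEB and TFE3 are members, the promoters of the other genes were read for the palindromic core of the CLEAR element, TCACGTGA, which is the same on both strands. RefSeq promoter sequences of GRCh38.p14, from 250 bases before to 50 bases after each start, were matched by symbol for 30 of the 39 members. The core was found in 6 of these 30 (20%), and in 1.18% of all 27305 genes with a promoter in the table. The shorter core CACGTG was found in 10 of the 30 (33.3%), and in 8.77% of all these genes. Many genes of this kind are known to be activated through CLEAR, so the higher share among the members is no independent finding. The following stretches of 30 bases are shown because they carry this element, which the selection of the members did not use. They read along the gene's strand, lie wholly before the annotated start, and have the core in capitals.
ATP6V1G1: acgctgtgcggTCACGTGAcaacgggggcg
ATP6V0D1: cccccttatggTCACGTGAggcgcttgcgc
CTSA: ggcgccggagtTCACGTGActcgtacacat
GAA, farther match: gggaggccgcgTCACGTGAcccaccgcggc
GAA, nearer match: gctcccgccggTCACGTGAcccgcctctgc
LAMP1: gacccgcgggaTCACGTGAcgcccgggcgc
MCOLN1: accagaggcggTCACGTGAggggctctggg

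In GRCh38.p14 these stretches are chr9:114587699-114587728 (plus strand), chr16:67481199-67481228 (minus), chr20:45891298-45891327 (plus), chr17:80101493-80101522 and chr17:80101538-80101567 (both plus), chr13:113297199-113297228 (plus) and chr19:7522571-7522600 (plus), in the order printed. The centres of the cores lay between 22 and 73 bases before the start. LAMP1 and MCOLN1 each have a further match close to the start, which is not printed. A match is a description of the letters and not a measured binding site. Of the 6 genes with the core, ATP6V1G1 was the only one called enriched in the Flag precipitate by the measure given next. Of all genes with enough counts for that measure, 28.7% were called so. The ratios of the 6 ran from 0.698 for MCOLN1 to 2.95 for ATP6V1G1.

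The Flag and IgG libraries summed to 5498124 and 3412864 counts, of which the members made up 0.108% and 0.0687%. Levels are given as CPM, counts scaled to the library total. Flag CPM over IgG CPM, the ratio used throughout, has an exact 95% Clopper-Pearson interval, which covers counting error alone, since sequenced PCR copies without molecular identifiers need not be separate molecules. A gene entered with at least 20 counts over both libraries, and enriched stands for an interval entirely above 2, depleted for one entirely below 0.5. With 1 library per group no ratio has a replicate check, no test was possible, and each call compares these libraries only. The median ratio of the 10811 entering genes was 1.93, and where a ratio of 1 lies depends on which RNAs fill each library. Mitochondrially encoded RNAs made up 33.0% of the counts (Flag) and 8.93% (IgG). The single gene MKI67 made up 3.92% (Flag) and 16.6% (IgG). In the deposited TPM, which is scaled per effective length, SNORD3A alone made up 17.8% (Flag) and 33.1% (IgG). TMM scaling lowered every log2 ratio by 0.78, so a ratio under 1.72 lies below 1 on that scale, and positions are therefore also given against the median gene, which no scaling of the libraries moves. MEX3A itself had 103 Flag counts and 5 IgG counts (ratio 12.8, 5.31 to 40.2). Of 12 renal epithelial and renal carcinoma markers 9 entered, PAX8 with 2532 and 1049 counts among them, while AQP1 and CA9 had 0 counts in both libraries and CDH16 had 7 and 0. Of 12 leukocyte, endothelial and erythroid markers 11 had 0 counts in both libraries, and VWF had 9 (Flag) and 0 (IgG).

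Of the 38 members that entered, 8 (21.1%) were enriched, against 28.7% of all entering genes, and 1 (2.63%) was depleted, against 1.32%. TFEB, with 11 and 6 counts, did not enter. The enriched members were the V1 subunits ATP6V1A, ATP6V1D, ATP6V1E1 and ATP6V1G1, the protease CTSL, and the membrane proteins LAMP2, SCARB2 and CD63; the depleted member was the V1 subunit ATP6V1F. The median ratio of the entering members was 1.32, below that of all genes at 1.93. Intervals of 8 members (21.1%) lay wholly above the median gene, as for 30.1% of all genes, and those of 18 members (47.4%) lay wholly below it, as for 30.4% of all genes. The share of enriched members did not exceed the background, while the share wholly below the median gene did. Member ratios ran from 0.199 for ATP6V1F to 8.75 for LAMP2, within the range of all entering genes, 0.027 to 382. The quartiles of the log2 ratios were -0.24 and 1.03 for the members, against 0.10 and 1.88 for all entering genes. With TPM, called by the 2-fold limit alone, 9 members were enriched, against 44.2% of all genes, and 4 depleted, against 6.59%. With TMM scaling 3 members stayed enriched (ATP6V1E1, CTSL and LAMP2), against 12% of all genes, and 4 were depleted (ATP6V1F, ATP6V1H, ATP6AP1 and ATP6V0C), against 6.12%.

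**Figure D1:**
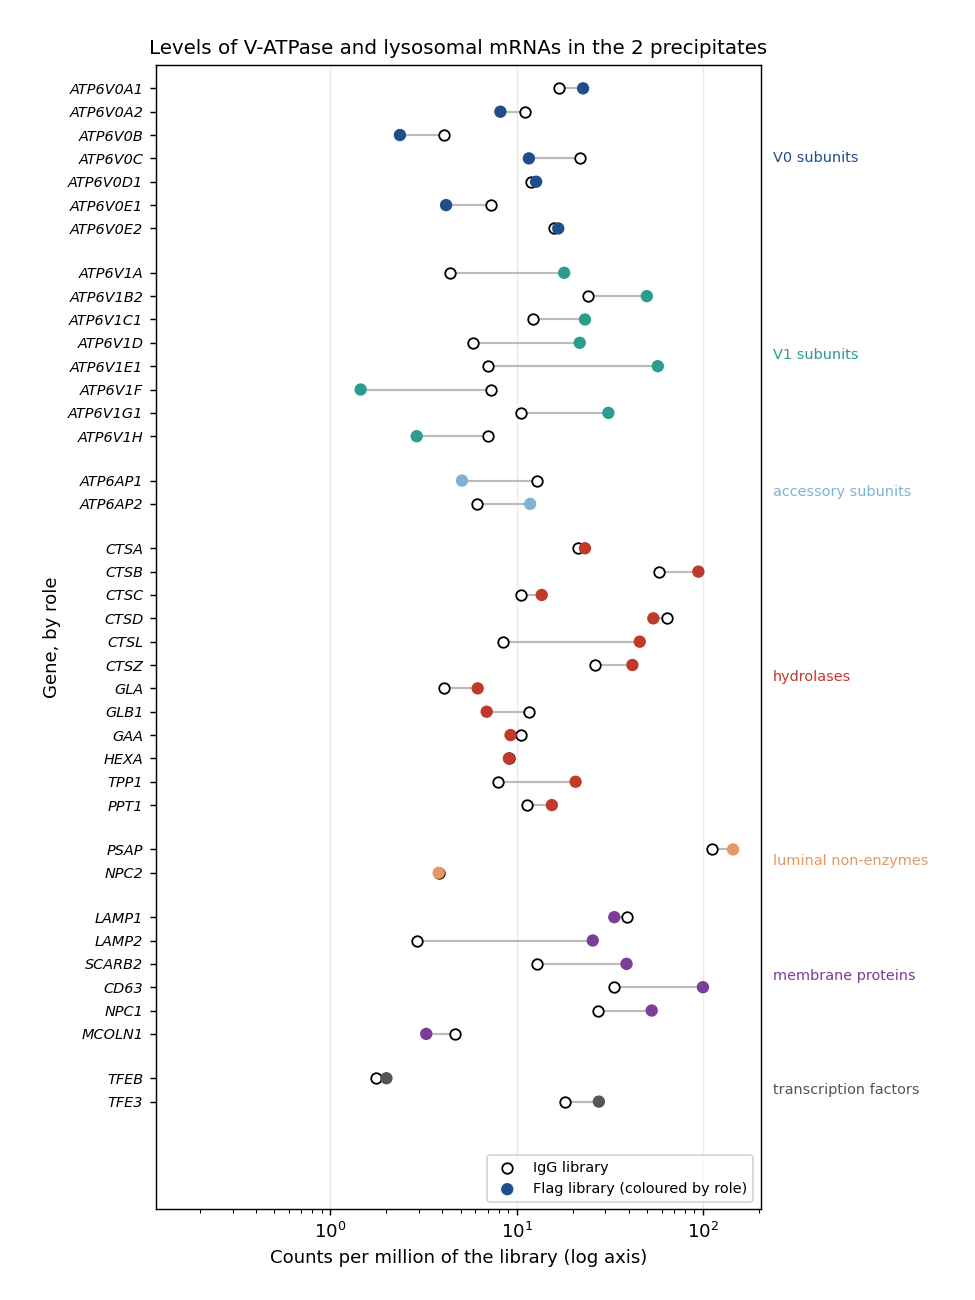
Level of each member in CPM on a log axis, with the IgG library as open circles and the Flag library as filled circles coloured by role, 1 library each. LAMP2, ATP6V1E1 and CTSL show the longest lines towards the Flag library, ATP6V1F the longest towards the IgG library, and PSAP has the highest level in both.

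The membrane sector of the pump had the narrowest full range of count ratios among the larger roles. By the quartiles of the log2 ratios, the hydrolases (-0.045 and 0.676) lay closer together than V0 (-0.802 and 0.082). With TPM the V0 ratios ran from 0.338 for ATP6V0A2 to 3.34 for ATP6V0A1. All 7 V0 mRNAs had intervals wholly below the median gene, against 30.4% of all entering genes, and 0 were enriched, against 28.7%. Their ratios ran from 0.530 to 1.34 with a median of 0.735. The proteolipid ATP6V0C, whose copies form the proton-carrying ring, had 64 Flag counts and 75 IgG counts (11.6 and 22.0 CPM, ratio 0.530, 0.373 to 0.749). The related proteolipid ATP6V0B had 13 and 14 counts (2.36 and 4.10 CPM), a ratio of 0.576 with a wide interval of 0.249 to 1.32. The small subunit e exists in isoforms, of which ATP6V0E1 had 23 and 25 counts (ratio 0.571, 0.310 to 1.05) and ATP6V0E2 92 and 54 (ratio 1.06, 0.748 to 1.51). The quotient of the e isoforms' ratios was 1.85, with an interval that includes 1 (0.908 to 3.77).

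ATP6V0D1, the subunit that joins the ring to the central shaft, had 70 and 41 counts (12.7 and 12.0 CPM, ratio 1.06, 0.711 to 1.60). The large subunit a, which forms the proton half-channels and directs the pump to its compartment, was counted as ATP6V0A1 with 125 Flag and 58 IgG counts (22.7 and 17.0 CPM, ratio 1.34, 0.972 to 1.86) and as ATP6V0A2 with 45 and 38 (8.18 and 11.1 CPM, ratio 0.735, 0.467 to 1.16). ATP6V0A1 was thus the highest of the sector and its interval came closest to the median gene. ATP6V0C and ATP6V0E2 had fractional counts, a sign that some reads were shared out among several genes. The count of 7 was 4 when the median was taken over every gene with at least 1 count, a median of 1.45, because the intervals of ATP6V0A1, ATP6V0D1 and ATP6V0E2 reach above it. With the deposited TPM, 6 of the 7 lay below the median TPM ratio of 1.73, and ATP6V0A1 lay above it at 3.34.

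The cytosolic sector held both the highest and the lowest ratios of the pump. Of 8 V1 mRNAs, 4 (50%) were enriched, against 28.7% of all entering genes, and 1 (12.5%) was depleted, against 1.32%. Their median ratio was 2.48. The higher share of enriched V1 mRNAs was seen with total counts only. With TMM scaling 1 (12.5%) was enriched, against 12% of all genes, and 2 (25%) were depleted, against 6.12%. With TPM 3 of the 8 were enriched, against 44.2% of all genes, and 1 was depleted, against 6.59%. ATP6V1E1, a subunit of the peripheral stalks that hold the motor still against its rotor, had 315 Flag counts and 24 IgG counts (57.3 and 7.03 CPM), a ratio of 8.15 (5.38 to 12.9). Its partner in the stalks, ATP6V1G1, had 171 and 36 counts (31.1 and 10.5 CPM, ratio 2.95, 2.05 to 4.35), the lowest lower bound among the enriched members and so nearest to the threshold. ATP6V1D, the central rotor shaft, had 120 and 20 counts (21.8 and 5.86 CPM, ratio 3.72, 2.31 to 6.32). ATP6V1A, the subunit with the catalytic ATP sites, had 99 and 15 counts (18.0 and 4.40 CPM, ratio 4.10, 2.37 to 7.60).

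These 4 mRNAs were higher in the Flag library on every library scaling that was tried, though only ATP6V1E1 kept its call with TMM scaling. The remaining head and stalk subunits were near the median gene. ATP6V1B2, which forms the hexameric head with ATP6V1A, had 275 and 82 counts (ratio 2.08, 1.62 to 2.70), and ATP6V1C1, which links the stalks to the membrane sector, 128 and 42 (ratio 1.89, 1.33 to 2.75). The ratio of ATP6V1A exceeded that of its partner ATP6V1B2 by 1.97-fold (1.06 to 3.85) in counts, but with TPM the quotient was 0.960.

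ATP6V1F, which binds the rotor shaft ATP6V1D, went the other way with 8 Flag counts against 25 IgG counts (1.46 and 7.33 CPM), a ratio of 0.199 (0.0774 to 0.454) and the 0.351st percentile of all entering genes. ATP6V1H, the subunit that restrains ATP hydrolysis in the free sector, had 16 and 24 counts (2.91 and 7.03 CPM, ratio 0.414, 0.205 to 0.812) and reached the depleted call with TMM scaling only. ATP6V1E1 and ATP6V1F had nearly equal IgG levels, at 24 and 25 counts, and parted by 41.0-fold in their ratios (15.6 to 114.5, conditional exact interval of the quotient). ATP6V1D and its binding partner ATP6V1F parted by 18.8-fold (6.86 to 53.9). Such quotients within the pair of libraries do not depend on any scaling, and the pairs were picked after the values were seen. With TPM the quotients were 59.0 and 12.5.

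The V1 mRNAs as a sum had 1132 Flag counts and 268 IgG counts, and the V0 mRNAs 432 and 305. The ratio of the V1 sum was 2.62 (2.29 to 3.01) and that of the V0 sum 0.879 (0.758 to 1.02). Their quotient was 2.98 (2.43 to 3.65), and ATP6V1E1 contributed 315 of the V1 Flag counts. These intervals cover counting error of the pooled counts and not the spread among genes. That spread was wide, with V1 ratios from 0.199 to 8.15. The medians of the sectors differed by 1.75 on the log2 scale in counts and by 0.80 in TPM, with V1 higher in both. This split by sector was made after the values were seen. The accessory subunits differed from each other: ATP6AP1 (Ac45), which guides assembly and trafficking of the pump, had 28 and 44 counts (5.09 and 12.9 CPM, ratio 0.395, 0.237 to 0.649), while ATP6AP2, also known as the prorenin receptor, had 65 and 21 (11.8 and 6.15 CPM, ratio 1.92, 1.16 to 3.31). Neither was called, ATP6AP1 was depleted with TMM scaling, and their quotient was 4.86 (2.33 to 10.2), or 2.15 with TPM.

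**Figure D2:**
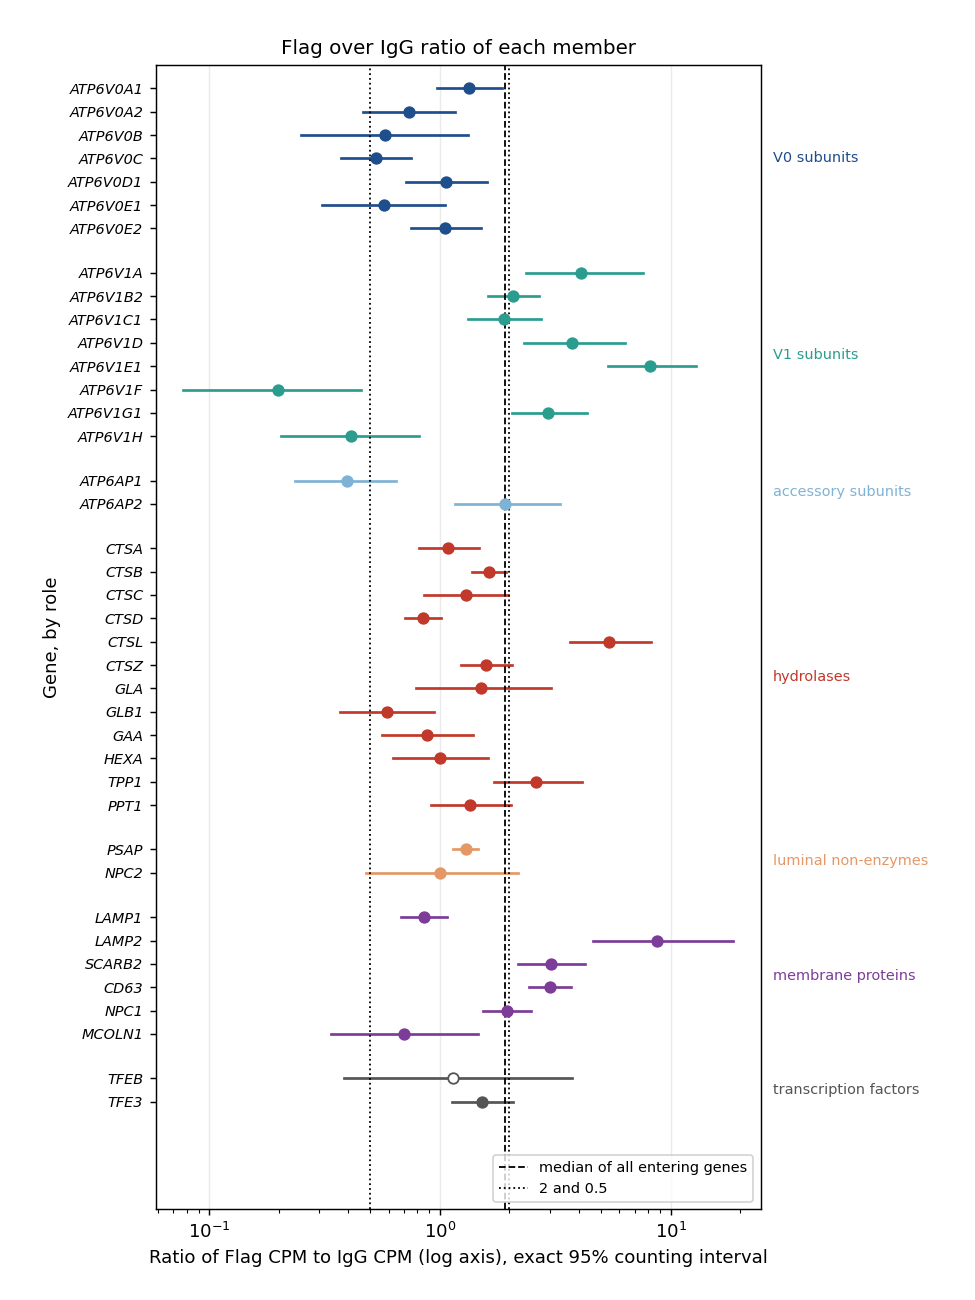
Flag CPM over IgG CPM for each member on a log axis, as points with exact 95% counting intervals coloured by role, 1 library per group. The dashed line is the median of all entering genes at 1.93, the dotted lines are the call limits 2 and 0.5, and the open circle is TFEB, which did not enter; every V0 interval ends left of the dashed line, while V1 intervals lie on both sides.

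Among the 12 hydrolases 1 (8.33%) was enriched, against 28.7% of all entering genes, and 0 were depleted, against 1.32%. Of the 12, 10 had a ratio below the median gene, as did 5405 of all 10811 entering genes. The cysteine protease CTSL had 252 Flag counts and 29 IgG counts (45.8 and 8.50 CPM), a ratio of 5.39 (3.66 to 8.22), and kept its call with TMM scaling and with TPM (6.60). Its relative CTSB had more counts in both libraries, 520 and 198 (94.6 and 58.0 CPM). In Flag TPM, however, CTSB (33.45) was below CTSL (38.72). The ratio of CTSB was 1.63 (1.38 to 1.93), and the quotient of CTSL over CTSB was 3.31 (2.16 to 5.21). The aspartic protease CTSD had 298 and 219 counts (54.2 and 64.2 CPM, ratio 0.845, 0.707 to 1.01), lower than CTSL by a quotient of 6.39 (4.14 to 10.1). Both quotients set the highest hydrolase against another and were picked after the values were seen. The intervals of all 5 other cathepsins end below the lower bound of CTSL.

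The exopeptidases CTSZ, CTSC and CTSA had ratios of 1.59 (1.24 to 2.05, 230 and 90 counts), 1.29 (0.858 to 1.98, 75 and 36 counts) and 1.09 (0.810 to 1.47, 128 and 73 counts, fractional in the Flag library). CTSA also protects a galactosidase and a sialidase in a complex, and its partner GLB1, the beta-galactosidase, had the lowest ratio of the hydrolases at 0.590 (0.368 to 0.943, 38 and 40 counts). The tripeptidyl peptidase TPP1 had the next highest ratio after CTSL, 2.62 (1.71 to 4.15, 114 and 27 counts), but with TPM its ratio was 0.655. The thioesterase PPT1, lost like TPP1 in a childhood neuronal ceroid lipofuscinosis, had a ratio of 1.35 (0.916 to 2.03, 85 and 39 counts), or 2.12 with TPM.

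The glycosidases other than GLB1 were GLA, the alpha-galactosidase of Fabry disease, at 1.51 (0.788 to 3.04, 34 and 14 counts), GAA, the acid glucosidase of Pompe disease, at 0.879 (0.563 to 1.39, 51 and 36 counts), and HEXA, the hexosaminidase subunit of Tay-Sachs disease, at 1.00 (0.627 to 1.62, 50 and 31 counts, fractional in the Flag library). None was called. The quotient of GLA over GLB1, picked after the values were seen, was 2.56 (1.12 to 5.96), or 2.11 with TPM. The luminal proteins that are not enzymes lay in the same range. PSAP, the precursor of the saposins that present lipids to hydrolases, had the most counts of any member, 798 and 383 (145.1 and 112.2 CPM). Its ratio was 1.29 (1.14 to 1.46). The cholesterol carrier NPC2 had 21 and 13 counts (ratio 1.00, 0.479 to 2.18).

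Of the 6 membrane proteins 3 (50%) were enriched, against 28.7% of all entering genes, and 0 depleted, against 1.32%. Their median ratio was 2.42. With TMM scaling 1 (16.7%) was enriched, against 12% of all genes, and 0 were depleted, against 6.12%. With TPM 3 of the 6 were enriched, against 44.2% of all genes, and 1 was depleted, against 6.59%. LAMP2, a major glycoprotein of the lysosomal membrane with a part in chaperone-mediated autophagy, had 141 Flag counts and 10 IgG counts (25.6 and 2.93 CPM), a ratio of 8.75 (4.62 to 18.6), the highest of all members and at the 93.8th percentile of all entering genes. Its relative LAMP1, much better covered in the IgG library, had 184 and 134 counts (33.5 and 39.3 CPM, ratio 0.852, 0.679 to 1.07). The LAMP pair thus parted by 10.3-fold (5.14 to 22.6), or 6.11-fold with TPM, with LAMP1 below the median gene and LAMP2 above it. This pair holds the highest member ratio and was picked after the values were seen, which the interval does not allow for.

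The tetraspanin CD63 had 550 and 114 counts (ratio 2.99, 2.44 to 3.70), and SCARB2 (LIMP-2), which carries glucocerebrosidase to the lysosome, 214 and 44 (38.9 and 12.9 CPM, ratio 3.02, 2.17 to 4.28). Both lost their calls with TMM scaling and both stayed above the median gene. The cholesterol transporter NPC1 lay at the median gene with 292 and 93 counts (ratio 1.95, 1.54 to 2.49); against NPC2, with which it hands on cholesterol, the quotient was 1.94 with an interval that includes 1 (0.857 to 4.25). The calcium channel MCOLN1 had 18 and 16 counts (ratio 0.698, 0.336 to 1.46). Of the transcription factors, TFE3 had 152 and 62 counts (27.6 and 18.2 CPM, ratio 1.52, 1.13 to 2.08) and was not called, and TFEB, at 11 and 6 counts, had a wide interval of 0.386 to 3.75.

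Set against each other as roles, the pump subunits had a median log2 ratio of 0.08, the hydrolases 0.40 and the membrane proteins 1.27, and all genes 0.95. The pump median was below that of the membrane proteins by 1.19 in counts and by 1.03 in TPM. The order of pump and hydrolases was not settled: the difference of medians, pump minus hydrolases, was -0.32 in counts and 0.19 in TPM, and 0.44 among genes with at least 100 counts. Summed counts gave a quotient of pump over hydrolases of 1.15 (1.02 to 1.31), the opposite order to the medians. Intervals of summed counts leave out the spread among genes, so they do not measure a difference between roles. The V1 mRNAs supplied 1132 of the 1657 Flag counts of the pump. Hydrolases over membrane proteins gave 0.662 (0.576 to 0.761) from summed counts, the same order as the medians.

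Counts and TPM gave different ratios for some members, since the files use a separate effective length for a gene in each library, weighted by the isoforms assigned there. For 13 of the 38 entering members (34.2%) these lengths differed by more than 1.5-fold between libraries, against 27.8% of all entering genes. The effective length of TPP1 was 2140 bases for Flag and 531 for IgG, which by construction lowers its TPM ratio. That of ATP6V0A1 was 1439 and 3645 bases and that of ATP6V0A2 2898 and 1299, so the isoforms of subunit a moved apart, from a quotient of 1.82 (1.03 to 3.20) in counts to 9.89 in TPM. ATP6V1A, at 4405 and 1992 bases, lost its call with a TPM ratio of 1.82, while ATP6V1H (524 and 1191 bases) moved to 0.944. LAMP2, ATP6V1E1, CTSL, CD63, SCARB2, ATP6V1G1 and ATP6V1D were enriched with TPM too, as were ATP6V0A1 (3.34) and PPT1 (2.12), which had no call in counts. ATP6V1F was depleted at 0.203, as were ATP6V0A2 (0.338), GLB1 (0.446) and MCOLN1 (0.465). Whether the lengths reflect different isoforms in the precipitates or the assignment of few reads was not tested.

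**Figure D3:**
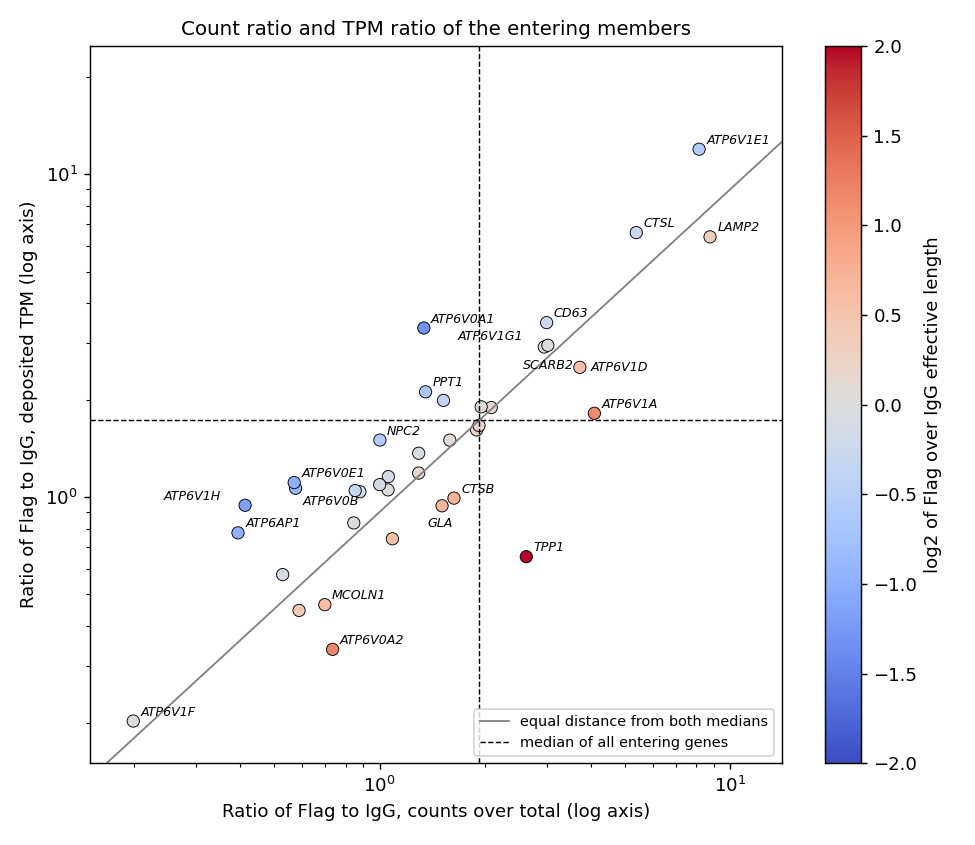
Ratio of Flag to IgG from counts over the total (horizontal, log axis) and from the deposited TPM (vertical, log axis) for the 38 entering members, 1 library per group, coloured by the log2 of Flag over IgG effective length. Dashed lines are the medians of all entering genes (1.93 and 1.73) and the grey line marks equal distance from both; TPP1 lies far below the line and ATP6V0A1 far above it.

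On the TPM scale, which allows levels of different genes to be compared per length, CD63 was the most abundant member in both libraries, at 187.3 TPM (Flag) and 53.8 TPM (IgG). In the Flag library ATP6V1E1 (77.7 TPM) and PSAP (56.8 TPM) followed, and in the IgG library PSAP (41.5 TPM), CTSB (33.7 TPM) and CTSD (33.3 TPM). The pump as a whole was led by ATP6V1E1 in the Flag library and by ATP6V0C (31.9 TPM) in the IgG library. Across the 38 entering members Spearman's rho between IgG and Flag CPM was 0.623, and across all 10811 entering genes 0.757; genes are not independent replicates and all points share the same libraries. Across the members, rho between the log2 ratio and mean effective length was 0.275, a weak relation, against 0.176 for all genes.

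In the RefSeq annotation of GRCh38.p14, the spans of 17 of the 39 members, introns included and on either strand, overlap another annotated gene. The strand setting of the counting is not given in the sources used here. Whether reads of such neighbours were counted for the members was not tested. Overlaps among the called members include ATP6V1D with GPHN, SCARB2 with FAM47E and CD63 with CD63-AS1 and RDH5. LAMP2, ATP6V1E1, CTSL, ATP6V1A, ATP6V1G1 and ATP6V1F overlap none there. All 9 called members had whole-number counts in both libraries.

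A wider set of 121 genes of the pump and the lysosome gave the setting for the members. Of the 95 that entered, 20 were enriched and 0 depleted, again to be read against 28.7% and 1.32% of all genes, with a median ratio of 1.51. With TMM scaling 4 (4.21%) were enriched, against 12% of all genes, and 4 (4.21%) depleted, against 6.12%. Of the other pump subunit isoforms, ATP6V0D2, ATP6V1B1, ATP6V1G2 and ATP6V1G3 were at 0 in each library, a count compatible with levels up to 0.546 CPM (Flag) and 0.879 CPM (IgG). ATP6V1E2, the isoform of ATP6V1E1, had a ratio of 5.09 (2.01 to 16.5, 41 and 5 counts), a call at the limit that was lost with TMM scaling. TCIRG1, the a subunit isoform of osteoclasts, had a ratio of 0.638 (0.484 to 0.843, 108 and 105 counts) and RNASEK, a protein associated with the pump, 0.661 (0.392 to 1.12), so both lay below the median gene like the V0 members.

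Of 10 entering genes for assembly and regulation of the pump 3 (30%) were enriched, near the 28.7% of all entering genes, and 0 depleted. WDR7, a partner of the DMXL proteins that help the sectors to assemble, had a ratio of 7.76 (3.79 to 18.5, 100 and 8 counts), and NCOA7, which binds the pump, 7.24 (3.67 to 16.3, 105 and 9 counts); both kept their calls with TMM scaling. The lowest upper bounds belonged to CCDC115, an assembly factor, at 0.680 (0.360 to 1.29), and TBC1D24 at 1.45 (0.932 to 2.30). Of 37 other hydrolases and cofactors 6 (16.2%) were enriched, against the same 28.7%, and 0 depleted. Their median ratio of 1.36 was close to the 1.32 of the member hydrolases. ARSG, at 25 fractional Flag counts and 0 IgG counts, was at least 5.17-fold higher when its IgG level was set at the floor of 3 counts, while its exact interval starts lower, at 3.90, SCPEP1 had a ratio of 9.31 (2.36 to 80.4, 30 and 2 counts) and lost its call with TMM scaling, and GALNS had a low ratio of 0.403 (0.262 to 0.614) and was depleted with TMM scaling.

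Of 26 other membrane proteins 5 (19.2%) were enriched, against 28.7% of all entering genes, and 0 depleted, against 1.32%. TMEM192, a lysosomal membrane protein, reached 12.0 (7.67 to 19.9, 387 and 20 counts), above every member, and TMEM106B 5.29 (3.28 to 9.02), though 1.18 with TPM, while the calcium and sodium channel TPCN1 (0.669, 0.569 to 0.787) and the chloride exchanger CLCN7 (0.830, 0.679 to 1.02) had the lowest upper bounds. Of 8 genes for mannose 6-phosphate and related sorting, which delivers the hydrolases, 1 (12.5%) was enriched, against the same 28.7%. It was the sorting receptor SORT1 at 3.79 (2.78 to 5.28, or 1.48 with TPM). IGF2R had 1463 and 503 counts and a ratio of 1.81 (1.63 to 2.002). The adaptors GGA3 (0.687) and GGA1 (0.869) had the lowest upper bounds. Of 11 genes for nutrient sensing at the lysosome and control of TFEB and TFE3, 4 (36.4%) were enriched, against the same 28.7%, and 0 depleted. FLCN, which regulates the Rag GTPases and with them TFE3, had 487 and 88 counts (ratio 3.44, 2.73 to 4.36), and its partner FNIP1 had 183 and 33 (ratio 3.44, 2.37 to 5.15), both with fractional counts and both without a call under TMM scaling. RRAGA (0.687, 0.399 to 1.19) and LAMTOR1 (0.781, 0.558 to 1.10), of the Rag and Ragulator complexes, had the lowest upper bounds.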

How the data were processed

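RNA immunoprecipitates of ACHN cells were sequenced as 1 IgG and 1 Flag library. Expected counts (estimated reads per gene, not normalized) and TPM (scaled per effective length) are the deposited values, laid out like RSEM gene output per the file headers. The lengths were deposited too, per the file headers. The submitters' processing notes name RSEM, STAR, GRCh37 and hg19. Versions, annotation and strandedness were not given in the sources used here.

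Expected counts were rounded to whole numbers and divided by the sum over all genes, and intervals came from SciPy 1.17.1. For a count of 0 the floor was 3 counts. The quotient of 2 ratios has a conditional exact interval. Pairs of members were picked after the values were seen, and these intervals do not allow for that. TPM ratios use a pseudocount of 0.1, were called by the fold of 2 alone and have no interval. Counts within 0.01 of a whole number were called whole. The interval script was tested on simulated data. TMM scaling used edgeR 4.0.16 and median-of-ratios scaling DESeq2 1.42.0.

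The members and lists were chosen with earlier results of these data known. All 39 members are named, and of each other list those 2 entering genes whose lower bound was highest and those 2 whose upper bound was lowest. One gene that this rule takes is not reported here. Other choices were made after values were seen. Of the list symbols, CTSL2 was not found in the files. The calls against the median gene were added after seeing the data. The input sample was not analysed here.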

Additional observations from a re-analysis of the deposited data

How the results depend on the processing

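Among all entering genes 28.7% were enriched and 1.32% depleted. These shares were 12% and 6.12% with TMM scaling, and 44.2% and 6.59% with TPM at a pseudocount of 0.1. Against the median gene, 30.1% lay above and 30.4% below. Shares over all genes were not computed for the other settings, so counts there cannot be set against the background. Members enriched and depleted numbered 8 and 1. They were 3 and 4 with TMM or median-of-ratios scaling, 5 and 1 with mitochondrial genes and the 10 largest left out of the totals, 8 and 0 at a minimum of 100 counts, 8 and 3 with TPM at a pseudocount of 1, 9 and 4 at 0.1, 11 and 2 at a 1.5-fold threshold, 2 and 0 at 4-fold, 6 and 0 with a 99% interval, and 8 above and 18 below when called against the median gene. Other pathway genes enriched and depleted numbered 20 and 0. They were 4 and 4 with TMM or median-of-ratios scaling, 12 and 0 with the reduced totals, 12 and 0 at 100 counts, 27 and 4 with TPM at a pseudocount of 1, 32 and 9 at 0.1, 28 and 1 at 1.5-fold, 1 and 0 at 4-fold, 11 and 0 with a 99% interval, and 21 above and 32 below the median gene.

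The members' median log2 ratio of 0.40 was -0.38 (TMM) and -0.39 (median of ratios), a shift that moves every gene alike. Pump minus hydrolases, -0.32, was 0.44 at 100 counts, where fewer genes enter, and 0.17 and 0.19 with TPM at pseudocounts of 1 and 0.1. Pump minus membrane proteins, -1.19, was -0.59 at 100 counts and stayed negative under each alternative run. The count of V0 subunits below the median gene, 7, was 4 with the median over genes with at least 1 count. Dropping the filter, adding 0.5 counts and keeping whole-count genes only moved none of the member counts by more than 1.5 times. The widest member intervals were those of TFEB, ATP6V1F, ATP6V0B, NPC2 and MCOLN1, all at low counts. No paired analysis was possible because each group has 1 library.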
